A study of Rattus norvegicus with 9 samples.

Results

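Fibronectin (Fn1), versican (Vcan), the transforming growth factor beta-induced protein (Tgfbi), extracellular matrix protein 1 (Ecm1), the collagen-binding protein Sparc and thrombospondin 1 (Thbs1) are secreted proteins of the extracellular matrix. Their genes were followed in hepatic macrophages of rats with a partially ligated portal vein. Members were chosen by gene symbol, as probesets that carry a listed symbol alone in the platform annotation. Of the 6 listed genes 5 were matched, each by 1 probeset, among 18166 genes with a single symbol, and all 5 were among the 14014 genes bright enough to be tested. Thbs1 was not matched, so its signal is not analysed here.

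The arrays came from 9 male Sprague-Dawley rats, with 3 rats in each of 3 groups. In partial portal vein ligation (PPVL) the vein is tied against a blunt needle, whose withdrawal leaves a fixed narrowing. PPVL rats were studied at 3 days or at 10 days after the operation. Sham rats had the same operation with no ligature, and the labels give no day for them, so ligation and time since surgery cannot be told apart. No allele, drug or age is given for any group, and each array is labelled as a separate rat.

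Matrix proteins are best known from stellate cells and fibroblasts, but monocytes and macrophages also secrete some of them. Fibronectin is assembled into fibrils that cells grip through integrins, and the liver also releases a soluble form of it from hepatocytes into plasma. Versican is a large chondroitin sulfate proteoglycan that binds hyaluronan and is made by monocytes. Tgfbi links collagens to integrins, and in mouse liver Ecm1 is known to restrain the activation of latent transforming growth factor beta. Sparc is made mainly by stromal and endothelial cells and binds collagen. In bulk RNA such as this, fewer cells of a type and less RNA per cell cannot be told apart.

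The limit for testing was a mean log2 signal of 4.16, the 30th percentile of all probesets. All 10 general macrophage markers passed it, from 4.77 for Mertk to 12.49 for Fcer1g, with 11.17 for Cd68 and 10.25 for Csf1r. Of 12 Kupffer cell genes 11 passed it. Clec4f, Marco, Cd163, Cd5l, Timd4 and Vsig4 had mean signals of 4.26 to 5.27, Folr2, Id3, Fcna, Slc40a1 and Nr1h3 had 6.62 to 7.55, and Spic was under the limit at 3.41. Markers of T cells (14 of 14 tested) and natural killer cells (10 of 10) all passed it, with mean list signals of 9.04 to 9.62 and 9.41 to 9.94 over the arrays. The label of hepatic macrophage therefore covers preparations that also held lymphocyte RNA. Array medians were 5.21 to 5.26, and any pair of arrays correlated at 0.987 to 0.993 across probesets. Sham rat 1 stood apart from the other sham rats in several of the genes below, and calls that are lost without it are named where they are given.

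At 3 days after PPVL the fibronectin, versican, Tgfbi and Ecm1 genes were all higher than in sham rats, by 1.52-fold to 2.48-fold, while Sparc was not. These 4 of 5 genes rose past the test, and their groups did not overlap. Among all 14014 genes tested 2.86% passed, 2.15% higher and 0.714% lower, and 10.1% were higher and 8.66% lower without overlap. An unadjusted p under 0.05 was reached by 15.5% of them, in either direction. The median difference of the 5 genes was 0.78 on the log2 scale, against -0.014 for all genes tested. Differences are log2 differences ± standard error (SE) with n = 3 rats per group. Adjusted p is that of limma's moderated test with the Benjamini-Hochberg method over 14014 genes, with a threshold of 0.05.

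Fn1 had log2 signals of 10.29, 10.60 and 10.55 in sham rats 1 to 3, of 11.95, 11.79 and 11.63 in the 3-day rats, and of 11.02, 11.02 and 10.99 in the 10-day rats. The 3 groups lay apart from one another, with every 3-day rat highest, every sham rat lowest and the 10-day rats almost identical to each other. The rise at 3 days was 1.31 ± 0.10 (2.48-fold, adjusted p = 0.000929). It was the 19th largest rise of the 14014 genes and had the second smallest p. The standard deviation (SD) was 0.169 in sham rats, 0.16 at 3 days and 0.0154 at 10 days.

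Vcan followed the same order. Its log2 signals were 9.46, 10.23 and 10.08 in the sham rats, 11.31, 11.12 and 11.06 at 3 days, and 10.32, 10.24 and 10.34 at 10 days. Every 3-day rat was above every other array, and sham rat 1 was the lowest of all. Vcan rose by 1.24 ± 0.17 at 3 days (2.36-fold, adjusted p = 0.00631), and by 1.00 without sham rat 1 (adjusted p = 0.00264). The 10-day rats lay just above the highest sham rat, and their difference of 0.38 ± 0.17 from sham did not pass (adjusted p = 0.316). That difference was 0.14 without sham rat 1.

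Tgfbi was high at both days. Its log2 signals were 7.92, 8.27 and 8.16 in sham rats, 8.72, 9.13 and 8.84 at 3 days, and 8.72, 8.64 and 8.83 at 10 days. All 6 ligated rats were above all 3 sham rats, and the ligated groups overlapped each other. The rise at 3 days was 0.78 ± 0.12 (1.72-fold, adjusted p = 0.0106). At 10 days the difference of 0.61 ± 0.12 from sham narrowly missed the threshold (adjusted p = 0.0558).

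Ecm1 was raised at 3 days alone among the groups. Its log2 signals were 5.89, 5.93 and 6.14 in sham rats, 6.33, 6.66 and 6.78 at 3 days, and 5.72, 6.03 and 5.97 at 10 days. The lowest 3-day rat exceeded the highest sham rat by less than the spread among the 3-day rats, whose SD was 0.232. The rise was 0.60 ± 0.13 (1.52-fold, adjusted p = 0.0409). This call was fragile: it held without 3-day rat 1 and without 10-day rat 1, and was lost in the other 7 fits that left out 1 array, with adjusted p up to 0.13. At 10 days the difference from sham was -0.08 ± 0.13, with a 95% interval from -0.37 to 0.21.

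Sparc was the one gene of the 5 with no rise, and it was dim. Its group means of 4.75 to 5.09 lay under every array median (5.21 to 5.26) and not far above the limit of 4.16. Its log2 signals were 5.11, 5.02 and 5.15 in sham rats, 4.71, 4.87 and 5.27 at 3 days, and 4.69, 4.83 and 4.74 at 10 days. The 3-day rats spanned the sham values, and rat 3 of that group was the highest array of all. The difference at 3 days was -0.14 ± 0.12 (adjusted p = 0.656), with a 95% interval from -0.42 to 0.13. At 10 days every rat was below every sham rat, by -0.34 ± 0.12 on average, which did not pass (adjusted p = 0.213).

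**Figure D1:**
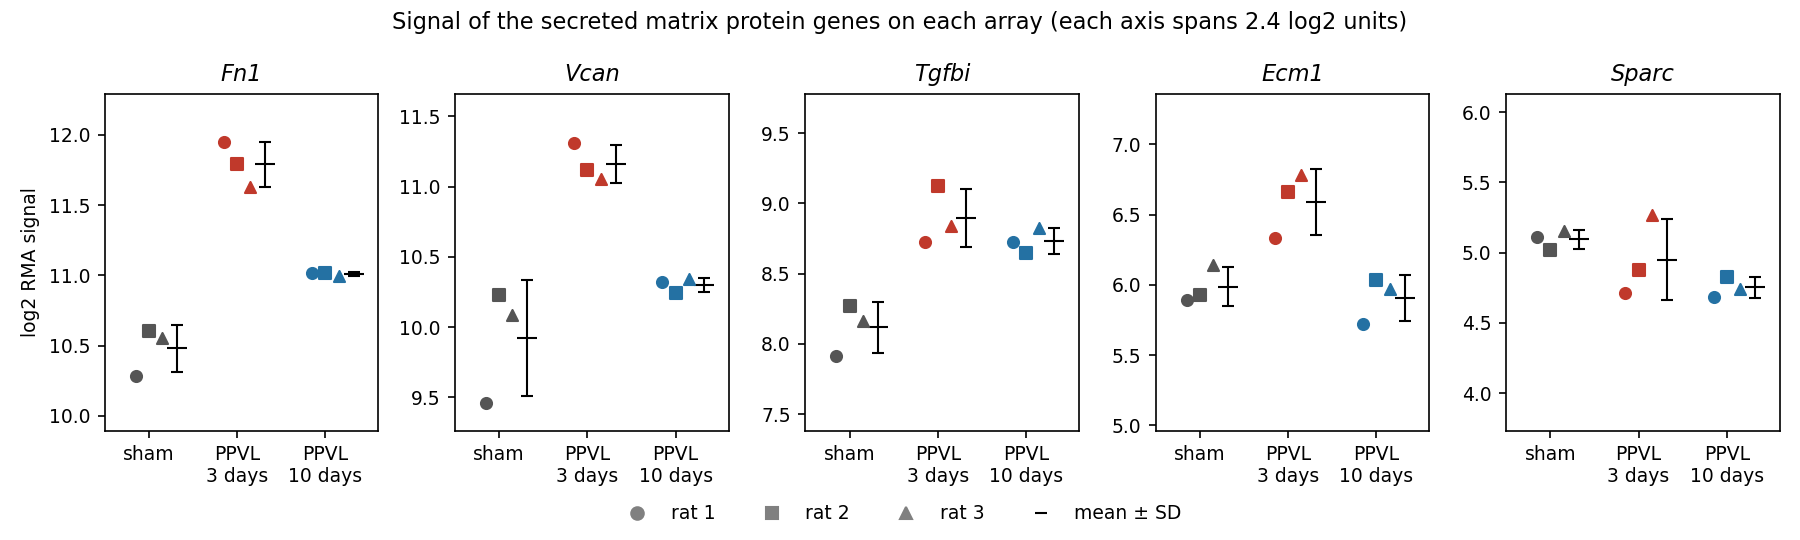
Log2 signal (vertical axes, each spanning the same range) of Fn1, Vcan, Tgfbi, Ecm1 and Sparc on each of the 9 arrays, by group, with rats 1 to 3 of each group as circle, square and triangle and the group mean ± SD as bars. Fn1 and Vcan peak at 3 days, Tgfbi is above sham in all 6 ligated rats, Ecm1 is raised at 3 days, and Sparc, whose signal is dim, has no rise.

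The 250 bases before the annotated transcription start are shown for Vcan, Tgfbi and Ecm1, because these genes rose together at 3 days. Fn1 rose with them but has no entry among the promoter sequences used here. The sequences are from RefSeq (GRCr8), read 5′ to 3′ on the gene's own strand, which is the minus strand for all 3. The Vcan window is chr2:22595956-22596205, that of Tgfbi is chr17:7990114-7990363 and that of Ecm1 is chr2:185981607-185981856. Capitals mark matches, on either strand, to the GC box (GGGCGG), the CCAAT box (CCAAT), the TATA box (TATAAA) and the AP-1 motif (TGANTCA).
Vcan: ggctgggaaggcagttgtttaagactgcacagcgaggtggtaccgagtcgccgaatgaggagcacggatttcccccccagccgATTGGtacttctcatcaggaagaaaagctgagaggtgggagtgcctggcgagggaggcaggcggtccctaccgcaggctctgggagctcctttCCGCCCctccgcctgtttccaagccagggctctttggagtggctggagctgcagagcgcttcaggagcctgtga
Tgfbi: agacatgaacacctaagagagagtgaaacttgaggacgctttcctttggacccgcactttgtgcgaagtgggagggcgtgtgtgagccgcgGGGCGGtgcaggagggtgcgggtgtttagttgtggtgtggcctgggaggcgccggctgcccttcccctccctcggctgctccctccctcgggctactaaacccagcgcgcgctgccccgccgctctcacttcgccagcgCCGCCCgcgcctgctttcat
Ecm1: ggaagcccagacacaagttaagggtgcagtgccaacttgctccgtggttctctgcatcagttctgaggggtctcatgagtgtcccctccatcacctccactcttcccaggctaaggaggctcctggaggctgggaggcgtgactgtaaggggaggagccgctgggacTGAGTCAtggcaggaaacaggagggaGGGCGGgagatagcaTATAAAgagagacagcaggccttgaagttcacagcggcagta

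All 3 windows held a GC box, as did 30.5% of 33469 rat promoter windows of this length. Tgfbi had 2, and Vcan had 1 and also held a CCAAT box (34% of windows). Ecm1 held the one AP-1 match, 83 to 77 bases before the start (6.34% of windows), and the one TATA box, 42 to 37 bases before it (12.9% of windows). No motif overlapped another, and the AP-1 match reads as the motif on both strands. The PU.1 site (GAGGAAGT) and the cyclic AMP response element (TGACGTCA) matched in none of the 3, with 2.04% and 1.59% of all windows holding them. The Sparc window held none of the 6 motifs. That of Thbs1, which has no signal here, held 2 GC boxes and 1 CCAAT box. GC content was 57.6% to 65.6% in the 3 windows and 60% in that of Sparc, against a median of 51.2% over all windows. Of the 6 motifs searched, the GC box was the one that these 3 genes shared. These matches describe letters and are not binding sites.

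Between 3 and 10 days Fn1 was the one member past the test. It fell by 0.78 on the log2 scale (SE 0.10, adjusted p = 0.0324), 1 of 5 members to fall, where 0.05% of all genes tested fell and 0.0214% rose. Fn1, Vcan and Ecm1 were lower without overlap at 10 days than at 3 days, 3 of 5, where 7.74% of all genes were lower and 6.9% higher without overlap. The Vcan difference of -0.86 ± 0.17 and the Ecm1 difference of -0.68 ± 0.13 were of similar size to that of Fn1 but did not pass (adjusted p = 0.172 for each). Tgfbi differed by -0.16 ± 0.12 (adjusted p = 0.624), with a 95% interval from -0.43 to 0.10. The interval of Fn1, from -1.01 to -0.56, lay wholly below that of Tgfbi. Whether the genes differ from one another in their course was not tested. The Fn1 call held without sham rat 1 and without 3-day rat 3, and was lost in the other 7 fits that left out 1 array (adjusted p up to 0.187). Without sham rat 1 the Vcan difference also passed (adjusted p = 0.0154).

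At 10 days against sham, 0 of 5 members passed limma's test, where 0.735% of all genes tested did, 0.492% higher and 0.243% lower. At an unadjusted p under 0.05 there were 2 higher (Fn1 and Tgfbi) and 1 lower (Sparc), where 16.2% of all genes reached it. Fn1, Vcan and Tgfbi were higher without overlap and Sparc was lower. Of all genes 21% had no overlap, 9.88% higher and 11.1% lower. Fn1 remained 0.53 ± 0.10 above sham, at the edge of the threshold (adjusted p = 0.0522). In order of level, Fn1 and Vcan thus ran from sham through 10 days to 3 days, with the 10-day and sham groups of each not told apart by the test. Both comparisons with sham share the same sham rats, so their values are given side by side and not as independent support.

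**Figure D2:**
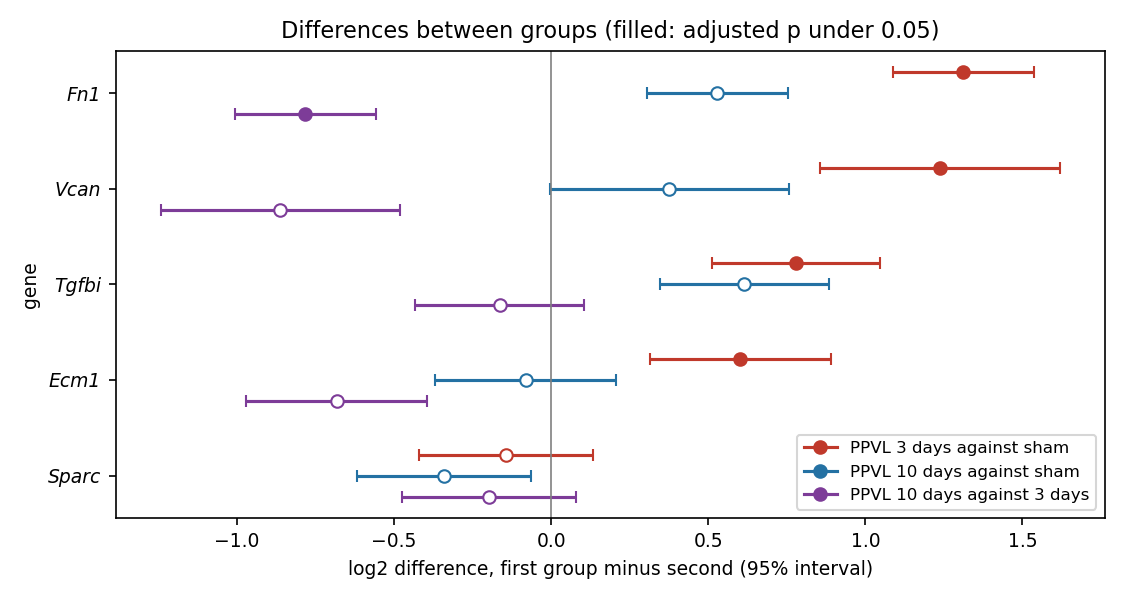
Log2 differences between groups with 95% intervals (horizontal axis) for the 5 genes (vertical axis) in the 3 comparisons, with filled points for adjusted p under 0.05. At 3 days against sham 4 points are filled, at 10 days against sham none, and at 10 days against 3 days only that of Fn1.

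Receptors for these proteins were among the genes that rose. Of 17 receptor genes 14 were tested, and at 3 days 4 rose and 0 fell, with a median difference of 0.21, where 2.15% of all genes rose. At an unadjusted p under 0.05, 7 were higher and 2 lower at 3 days, and 6 higher and 2 lower at 10 days. Of all genes 15.5% and 16.2% reached it, in either direction. The 4 that rose were Lrp1, an endocytic receptor that clears matrix-bound proteases and thrombospondin, the heparan sulfate proteoglycan Sdc1, Itga5, the alpha chain of the classical fibronectin receptor, and the hyaluronan receptor Cd44. Without sham rat 1, or without sham rat 2, the count was 2, and with the monocyte or the lymphocyte score described below as a covariate it was 0.

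Lrp1 had log2 signals of 8.58, 8.90 and 8.85 in sham rats, 9.64, 9.78 and 9.48 at 3 days, and 9.50, 9.47 and 9.56 at 10 days. Every ligated rat was above every sham rat. Lrp1 rose by 0.85 ± 0.10 at 3 days (adjusted p = 0.00338) and by 0.73 ± 0.10 at 10 days (adjusted p = 0.04), where it was the single receptor to pass. The call at 10 days was lost when any sham rat or any 10-day rat was left out (highest adjusted p 0.143).

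Itga5 had log2 signals of 8.19, 8.57 and 8.57 in sham rats, 8.95, 9.29 and 9.12 at 3 days, and 9.07, 8.76 and 8.78 at 10 days. All ligated rats exceeded all sham rats. The rise at 3 days was 0.68 ± 0.13 (adjusted p = 0.0288). It was lost in 6 of the 9 fits without 1 array, namely without sham rat 1, 2 or 3, 3-day rat 2 or 3, or 10-day rat 3, the highest adjusted p being 0.0995. Sdc1 rose by 0.78 ± 0.12 at 3 days (adjusted p = 0.0103). Cd44 rose by 0.44 ± 0.08 (adjusted p = 0.0163), a call lost without sham rat 1 (adjusted p = 0.0536) or sham rat 2 (0.0558).

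Other secreted matrix genes were counted next. Of 42 listed, 29 were tested, 1 rose at 3 days and 0 fell, and the median difference was -0.02, with 3 higher and 0 lower at an unadjusted p under 0.05. The riser was Spp1, which encodes osteopontin, by 0.91 ± 0.17 (adjusted p = 0.0213). Its log2 signals were 9.59, 9.86 and 10.04 in sham rats, 11.10, 10.48 and 10.63 at 3 days, and 10.20, 10.24 and 10.50 at 10 days, so sham and 3-day rats did not overlap. Its call was lost without sham rat 1 (adjusted p = 0.0714) or sham rat 2 (0.0679). The 10 collagen genes tested differed by -0.15 to 0.07 at 3 days, with 0 past limma's test and 0 at an unadjusted p under 0.05. At 10 days they differed by -0.05 to 0.25, with 0 past the test and 1 at an unadjusted p under 0.05. None of the 29 genes passed limma's test at 10 days, when 2 were higher and 1 lower at an unadjusted p under 0.05.

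Enzymes that build or modify these proteins had single members that rose. Xylt1, which starts the sugar chains of proteoglycans such as versican, was the 1 of 20 tested hyaluronan and versican partners to rise, and 0 fell. Of the 20, 5 had a difference above 0 at 3 days, the median was -0.07 and 3 were lower at an unadjusted p under 0.05. At 10 days 3 were lower at an unadjusted p under 0.05 and 5 were lower without overlap. It rose by 0.56 ± 0.08 at 3 days (adjusted p = 0.00868) and by 0.65 ± 0.08 at 10 days (adjusted p = 0.04). Its log2 signals were 7.51, 7.31 and 7.39 in sham rats against 8.03, 7.80 and 8.07 at 3 days and 8.04, 8.07 and 8.06 at 10 days, with no overlap with sham at either day. The call at 10 days was lost without sham rat 2, without sham rat 3 or when any 10-day rat was left out (highest adjusted p 0.143). The 5 ADAMTS proteases tested, a family that includes versican-cleaving enzymes, had a lowest difference of -0.19 at 3 days, and 0 passed limma's test, with 1 at an unadjusted p under 0.05. At 10 days they differed by -0.14 to 0.06, with 0 past the test and 0 at an unadjusted p under 0.05.

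Among 15 tested genes of matrix crosslinking and maturation 1 rose at each day and 0 fell. At an unadjusted p under 0.05, 4 were higher and 1 lower at 3 days, and 2 higher and 1 lower at 10 days. The gene past the test was Fam20c, a kinase of secreted proteins. Fam20c rose by 1.12 ± 0.18 at 3 days (adjusted p = 0.0128) and 1.08 ± 0.18 at 10 days (adjusted p = 0.0449). The call at 3 days was lost without 3-day rat 2 (adjusted p = 0.0538). The call at 10 days was lost in 7 of the 9 fits without 1 array, all but those without 3-day rat 1 or 3-day rat 3 (adjusted p up to 0.153). Of 18 tested genes of the transforming growth factor beta pathway, 0 passed limma's test at 3 days and 0 at 10 days, with a median difference of -0.06 at 3 days. At an unadjusted p under 0.05 there was 1 lower at 3 days, and 1 higher and 1 lower at 10 days. The smallest p values of that list at 3 days were those of the processing protease Furin (-0.20 ± 0.07, adjusted p = 0.198) and the co-receptor Tgfbr3 (-0.17 ± 0.08, adjusted p = 0.336). Between 3 and 10 days no gene of the 5 lists passed limma's test, and at an unadjusted p under 0.05 each list had 1 to 2 higher and 0 to 3 lower. Of all genes tested 11.3% reached an unadjusted p under 0.05 in that comparison, in either direction.

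**Figure D3:**
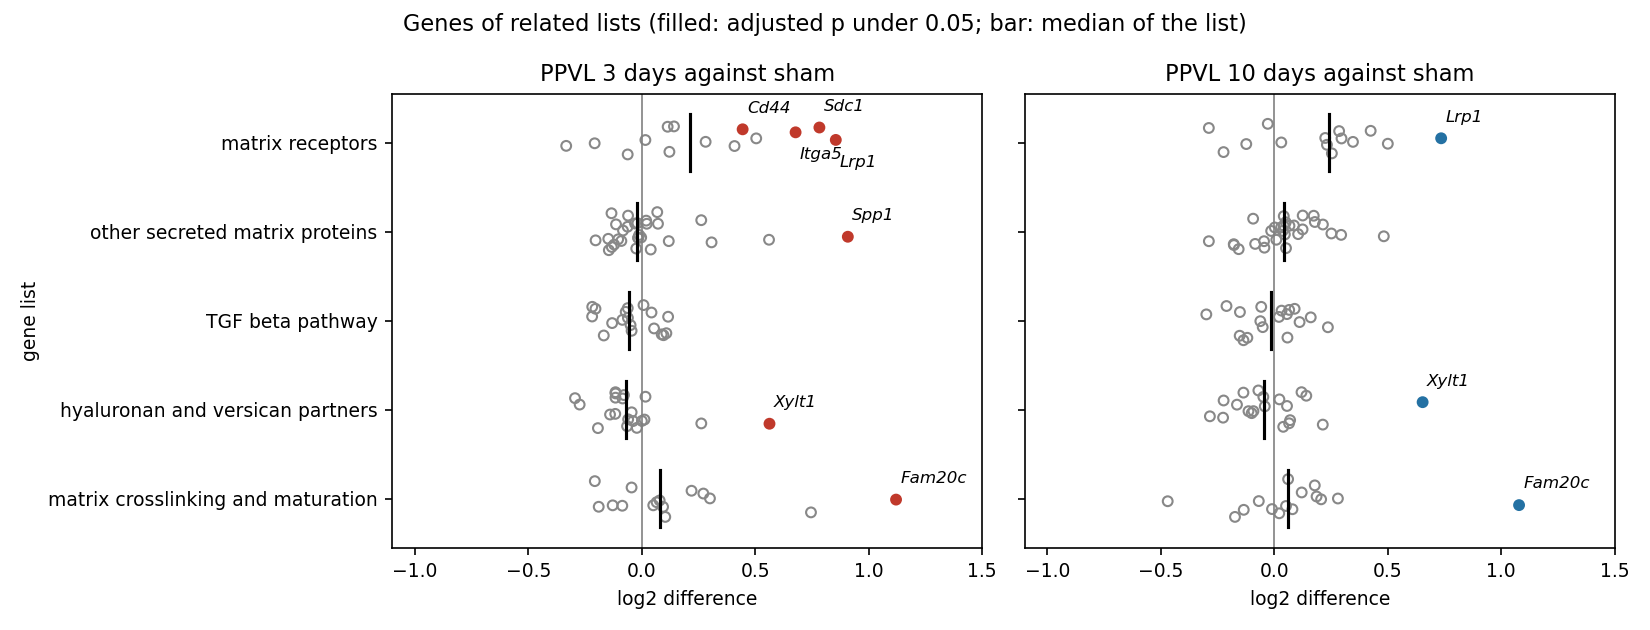
Log2 differences from sham (horizontal axes) at 3 days and at 10 days for the tested genes of 5 related lists (vertical axis), with filled, named points for adjusted p under 0.05 and a bar at each list's median. The 4 receptors that rose at 3 days lie between 0.44 and 0.85, and the medians of the receptor list are 0.21 at 3 days and 0.24 at 10 days. The medians of the other lists lie between -0.07 and 0.08.

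Markers of other cells moved with these genes. Group means of the recruited monocyte, Kupffer cell, neutrophil and hepatocyte scores had the same order as those of Fn1 and Vcan. Of 10 monocyte markers tested 5 rose at 3 days, among them Csf3r (1.04) and Cd14 (0.92). Csf3r, S100a8 and S100a9 are also on the neutrophil list, so the score is not specific to monocytes. The mean log2 signal of the 10 markers was 8.91 to 9.43 in sham rats, 9.77 to 10.06 at 3 days and 9.36 to 9.55 at 10 days. The Csf3r call was lost without sham rat 1 or 2, 3-day rat 1 or 2, or 10-day rat 1 or 2 (highest adjusted p 0.0978), and the Cd14 call without sham rat 1 or 2 or 3-day rat 1 or 3 (highest 0.0783). Sham rat 1 had the lowest monocyte score, at -0.62 against -0.27 and -0.11 in the other sham rats, and it was also lowest for Fn1, Vcan and Tgfbi. With the monocyte score as a covariate 0 of 5 members and 0 of all genes passed at 3 days, and the differences were 0.87 for Fn1, 0.46 for Vcan, 0.42 for Tgfbi and 0.64 for Ecm1. The score itself was above every other array in the 3-day rats, and sham and 10-day rats overlapped. Of 11 Kupffer cell genes tested 2 rose at 3 days, the iron exporter Slc40a1 (1.27) and the ficolin Fcna (0.75). At an unadjusted p under 0.05, 6 were higher at 3 days and 3 at 10 days, and 0 were lower. The Kupffer cell score was not used as a covariate. Kupffer cell list signals were 5.49 to 5.52 in sham rats, 5.78 to 6.20 at 3 days and 5.68 to 5.72 at 10 days. The groups did not overlap. T cell list signals were 9.38 to 9.62, 9.16 to 9.38 and 9.04 to 9.25 in the same order, and at 10 days Cd5 (-0.58) and Cd6 (-0.64) fell, 2 of 14. Both calls held without 3-day rat 1 and without 3-day rat 3 and were lost in the other 7 fits without 1 array (highest adjusted p 0.174). At an unadjusted p under 0.05, 8 of 14 T cell genes were lower at 3 days and 12 of 14 at 10 days, when 11 were lower without overlap. With the joint score of both lymphocyte lists (T and natural killer cells) as a covariate 0 members passed at 3 days, and Fn1 differed by 1.25 (adjusted p = 0.0728). The joint score was 0.0823 to 0.273 in sham rats and -0.0853 to 0.0739 in 3-day rats. These groups did not overlap in it, so that fit cannot tell the score from the group.

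Cells that make matrix in a normal liver were measured by their own markers. Of the stellate cell and fibroblast list 10 of 15 genes were tested and 0 passed limma's test at either day, with 1 higher at an unadjusted p under 0.05 at 3 days and 3 at 10 days. Its mean log2 signal was 5.20 to 5.32 in sham rats, 5.30 to 5.35 at 3 days and 5.35 to 5.43 at 10 days, and Dcn, Lum, Lrat and Pdgfra lay under the limit for testing. Of 8 tested hepatocyte genes the haptoglobin gene Hp rose at 3 days (0.72), a call lost without sham rat 1 or 2 or 3-day rat 1 or 3 (highest adjusted p 0.0697), and list signals were 5.19 to 5.44, 5.32 to 5.82 and 5.48 to 5.60. With the hepatocyte score as a covariate the differences at 3 days were 1.37 for Fn1 (adjusted p = 0.00557), 1.28 for Vcan (0.0354) and 0.95 for Tgfbi (0.0184), and Ecm1 no longer passed (0.178). Platelet list signals were 6.22 to 6.61, 6.28 to 7.19 and 6.02 to 6.38, with 0 of 5 tested genes passing at 3 days and 3 at an unadjusted p under 0.05. With the platelet score as a covariate Fn1 differed by 1.37 (adjusted p = 0.00247), Vcan (0.0171) and Tgfbi (0.00706) also passed, and Ecm1 did not (0.0877). Of the 7 tested genes of sinusoidal endothelial cells, the 4 of mesothelial cells and the 1 of cholangiocytes, 0 passed limma's test in any comparison, with 0 to 1 per list in each direction at an unadjusted p under 0.05. The part of these cells in the results was not tested beyond these covariates.

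Further lists were counted as well. B cell genes were higher in the ligated rats, with list signals of 8.01 to 8.03 in sham rats, 8.28 to 8.75 at 3 days and 8.44 to 8.70 at 10 days, and no overlap with sham at either day. Of 8 tested, 7 at 3 days and 8 at 10 days were higher without overlap, and as many were at an unadjusted p under 0.05, with median differences of 0.41 and 0.54. Vpreb3 (0.83) and Cr2 (0.75) rose at 3 days and 0 passed limma's test at 10 days. The Cr2 call was lost without any one of the sham rats (highest adjusted p 0.0704), and the Vpreb3 call also without 3-day rat 1 or 3 (highest 0.101). The part of B cell RNA in the results was not tested. Of 10 general macrophage markers Aif1 rose at 3 days (0.88). At an unadjusted p under 0.05, 5 were higher at 3 days and 4 at 10 days, and 0 were lower. Their list signals were 9.60 to 9.83 in sham rats, 9.94 to 10.11 at 3 days and 9.92 to 10.08 at 10 days, without overlap with sham. Of 10 neutrophil genes Csf3r alone rose at 3 days, when 3 were higher and 1 lower at an unadjusted p under 0.05, with a median difference of 0.47. Neutrophil list signals were 6.78 to 7.76, 7.54 to 8.19 and 7.13 to 7.66 in the same order, and lowest in sham rat 1. Fcna (0.52) and the integrin Itgam (0.78), also a monocyte marker, rose at 10 days, and both calls were lost when any sham rat or any 10-day rat was left out (highest adjusted p 0.143). Itgam had also risen at 3 days, by 0.89 (adjusted p = 0.00392 with limma). Of 10 natural killer cell genes 0 passed limma's test in any comparison, with 1 lower at 3 days and 6 lower at 10 days at an unadjusted p under 0.05.

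**Figure D4:**
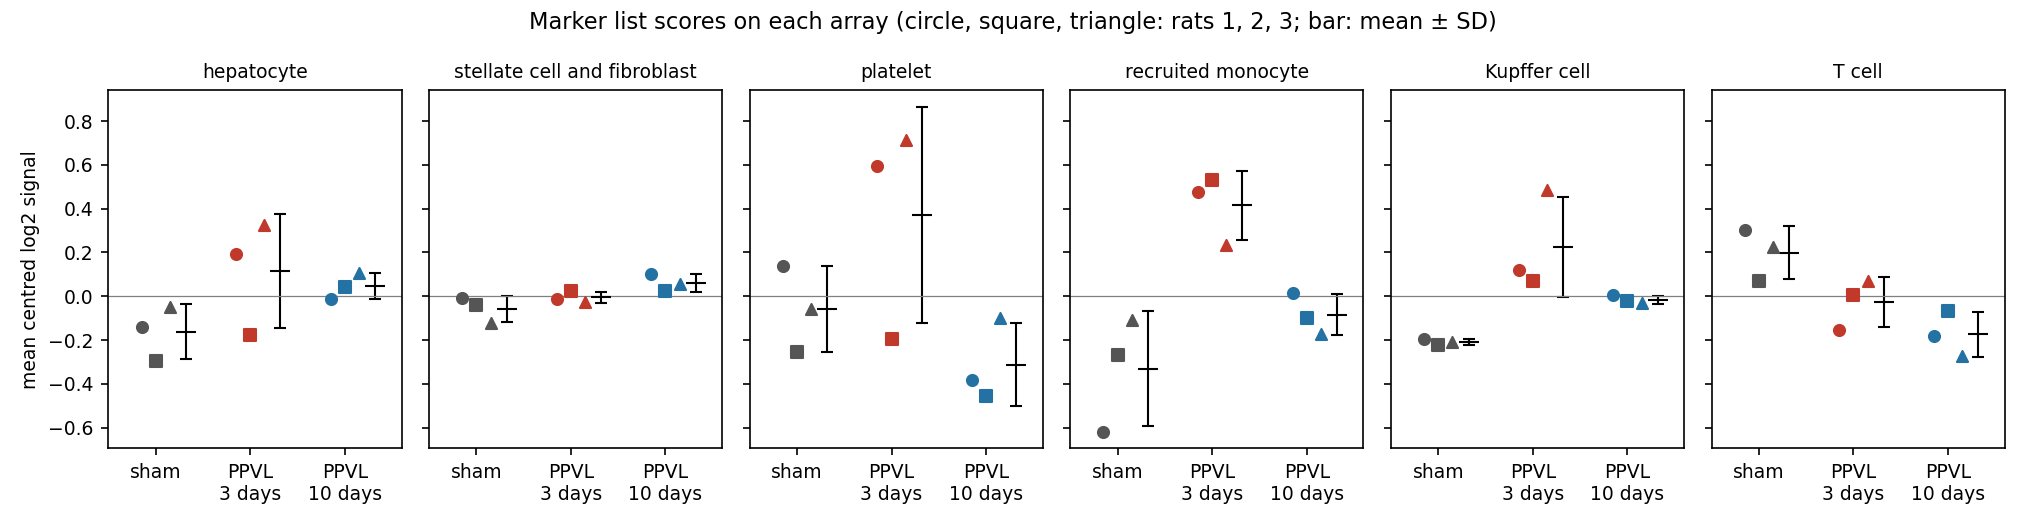
Mean centred log2 signal of 6 marker lists (vertical axis) on each array by group, with rats 1 to 3 as circle, square and triangle and the group mean ± SD as bars. The monocyte score is highest in the 3-day rats and lowest in sham rat 1, the stellate cell score stays between -0.12 and 0.10, and T cell scores are lower at 10 days than in sham rats.

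Genes with the most similar course were named by the smallest root mean square distance between centred log2 profiles over the 9 arrays, among 13926 genes. Fn1 and Vcan were closer to each other (0.136) than either was to any other gene listed here, except that Vcan was closer to Me1, which encodes malic enzyme (0.123). For Fn1 the nearest were F5, which encodes coagulation factor V (0.143), the nucleotide pyrophosphatase Enpp3 (0.146) and the ficolin Fcnb (0.157). For Vcan they were Me1, Cd36l1 (0.144) and Fcnb (0.166). F5 rose by 1.06 ± 0.08 at 3 days (adjusted p = 0.000929) and, like Fn1, fell between 3 and 10 days (-0.77 ± 0.08, adjusted p = 0.0165). Both members had their highest values at 3 days and their lowest in sham rat 1.

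Tgfbi kept other company. Its nearest genes were Plbd1 (0.0856), Kctd12 (0.0857) and the receptor Lrp1 (0.0919), each above sham without overlap at both days. For Ecm1 they were Mtus1 (0.137), Ccdc112 (0.164) and the actin-severing protein gene Gsn (0.169). For Sparc they were Gtf2i (0.0683), Mettl18 (0.0819) and Mrtfa, a coactivator of serum response factor (0.0825). The names shift with single arrays: of each set of 3, between 0 and 3 remained when 1 array was left out, and at least 1 for Vcan.

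**Figure D5:**
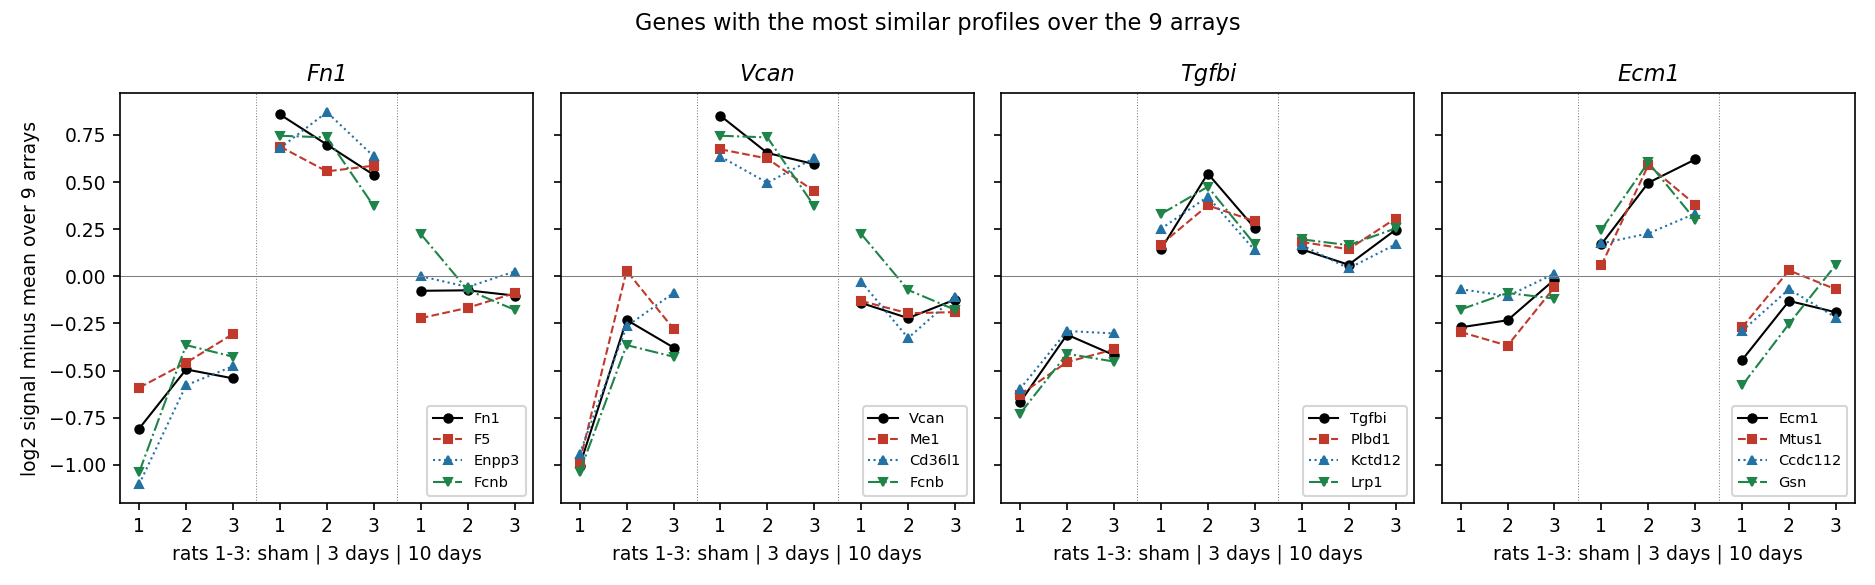
Log2 signal minus the mean over the 9 arrays (vertical axis) for Fn1, Vcan, Tgfbi and Ecm1 in black and for their 3 nearest genes, by rat within each group (horizontal axis). Profiles of Fn1 and Vcan are highest at 3 days, and at 10 days Fn1 and Tgfbi lie 0.53 and 0.61 above sham without overlap.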

How the data were processed

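Total RNA of hepatic macrophages from 9 rats was hybridised, biotin-labelled, to 1-colour Affymetrix arrays, 1 rat per array. The deposited values are log2 signals of 36685 probesets that the authors made with RMA (robust multi-array average) in Transcriptome Analysis Console, per the submitters' processing notes; versions and genome build are not given in the sources used here. No further normalization was applied. A single symbol was carried by 18511 probesets, several by 575 and none by 17599. The brightest probeset stood for a gene, and 14014 genes with a mean at or above 4.16 were tested. limma 3.58.1 in R 4.3.3 was fitted to all 9 arrays (6 residual and 3.59 prior degrees of freedom, without trend or robust options), and the procedure was tested on simulated data. An exact permutation test of 3 against 3 cannot go below 0.1. The number of arrays limits the precision, and the median SE was 0.0861. Of 264 list entries 33 were not matched and 27 lay under the limit. Lists have counts and medians and no set test. Named are the members, from each related list up to 4 genes past the test per comparison (or the 2 smallest p at 3 days where none passed), from each marker list up to 2, and 3 nearest genes per member. A score is the mean of centred log2 signals. The members and lists were chosen with earlier results of these data known. Alternatives covered the filter, probeset choice, normalization, moderation, array weights, replicate block, groups fitted, thresholds, covariates and each array left out. The monocyte and lymphocyte covariates were chosen after the data had been examined. The collagen and ADAMTS subgroups were chosen after their values were seen.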

Additional observations from a re-analysis of the deposited data

Results flagged for a closer look

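Fn1 differed between its 2 contrasts with sham: its difference from sham at 10 days minus that at 3 days was -0.78 on the log2 scale (adjusted p = 0.0324 with limma, the test of 10 against 3 days), and all 3 rats at 10 days were below all 3 at 3 days. The call held without sham rat 1 and without 3-day rat 3, and was lost in the other 7 fits that left out 1 array (adjusted p up to 0.187). Groups of 3 are too small for a formal test of whether a single array is an outlier.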

How the results depend on the processing

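The Fn1 rise at 3 days passed in all 9 fits without 1 array (adjusted p 0.00183 to 0.00674), as did those of Vcan (0.00264 to 0.0247) and Tgfbi (0.0134 to 0.0364). The count of members past the test at 3 days, 4 of 5, was 3 to 4 without 1 array. It was 3 with no filter on dim genes (Ecm1 0.0518) and with the hepatocyte (Ecm1 0.178) or platelet score (Ecm1 0.0877) as a covariate. It was 2 at a threshold of 0.01, 2 with all probesets adjusted together (Tgfbi 0.0584, Ecm1 0.152), 1 when the fit held just the 2 groups at issue (Vcan 0.0502, Tgfbi 0.0571), and 0 with the lymphocyte or the monocyte score as a covariate. At 10 days against sham it was 0, and 0 to 2 without 1 array. It was 2 at a threshold of 0.1, with a filter at the 50th percentile, with quantile normalization and with trend and robust moderation, and 1 with array weights. At 10 against 3 days it was 1, and 0 to 2 without 1 array. It was 0 at a threshold of 0.01, with all probesets, with the replicate block, with just the 2 groups at issue, and with the platelet, lymphocyte or monocyte score as a covariate. Sparc was not tested with the filter at the 50th percentile.

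Same-numbered arrays of different groups did not deviate together (correlations of -0.095 to 0.0837 in 9 pairs). Pairs with different numbers had -0.127 to 0.167. These values gave no sign that the replicate numbers pair the rats, but with 3 rats per group they cannot exclude it. With the replicate block 4 members passed at 3 days, 0 at 10 days and 0 between the days (Fn1 adjusted p = 0.123), and of all genes 264, 0 and 0 passed. Of all genes 401 passed at 3 days (0 to 709 over the alternatives, 190 to 327 without 1 array), 103 at 10 days (0 to 444, and 0 to 140) and 10 between the days (0 to 19, and 0 to 18). Directions turned for Ecm1 at 10 days without 10-day rat 1 (0.013, with a range down to -0.14 without 10-day rat 2), Vcan at 10 days with the lymphocyte score (-0.23), and, with the monocyte score, Sparc at 3 days (0.17), Tgfbi between the days (0.074) and Csf3r at 3 days (-0.11). Csf3r is 1 of the 10 genes in the monocyte score, so that fit adjusts it partly for itself. The cause of the other turns was not tested.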
